A study of Mus musculus with 6 samples.

Results

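The receptors described here are the 266 genes of the deposited count table whose symbol is Olfr with a number from 987 to 1318, a -ps ending allowed, with 2 numbers left out by the rule. They are 266 of 1180 olfactory receptor genes and of 31319 genes in the table. All 266 lie on mouse chromosome 2 in the GENCODE annotation of the build GRCm38, where 245 are annotated as protein coding and 21 as pseudogenes of several types. The rule uses the symbol alone and no measured value, and none of the members lies on another chromosome than its label says.

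The main olfactory epithelium (MOE), the sensory lining of the nose, was sequenced as poly(A)-selected RNA. In both groups the mice were C57BL/6 males aged 5 months. The group called KD here had 3 libraries (KD-1, KD-2, KD-3) of mice with a knockdown of miR-200b/a, that is of the neighbouring microRNAs miR-200b and miR-200a. The other group had 3 libraries (NC-1, NC-2, NC-3), is labelled NC and is named control in the column headers. The sources used here do not say how or in which cells the knockdown was made, nor what the NC mice received. No label states that a library is 1 mouse, so the p-values speak of the spread among the libraries, part of which may be technical. Values per library are given below in the order of the library number.

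Olfactory receptors are membrane receptors that bind odorants on the cilia of olfactory sensory neurons. Each mature neuron settles on a single receptor gene and expresses it from a single allele, so the RNA of any receptor comes from a small share of the neurons. A bound receptor activates the olfactory G protein, adenylyl cyclase 3 (Adcy3) and a cyclic nucleotide-gated channel, and mature neurons carry abundant Omp, the olfactory marker protein. Receptors on this chromosome belong to class II, the larger branch of the family, and sit in tandem arrays in which neighbours often arose from each other by duplication.

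The sequences that bear on the comparison are the microRNAs themselves and the near-identical neighbours that the counting had to separate. The mature microRNAs from the RefSeq table (GRCm38.p6, minus strand, chr4:156054911-156054932 and chr4:156055685-156055706) are shown 5′ to 3′ with the seed, bases 2 to 8, in capitals. Their seeds differ, so each has its own matching 7-base site.
mmu-miR-200a-3p: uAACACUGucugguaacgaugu
mmu-miR-200b-3p: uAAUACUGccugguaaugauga

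Among members with an annotated 3′ UTR, 77 of 233 (33.0%) held at least 1 match to either seed (CAGTGTT for miR-200a-3p, CAGTATT for miR-200b-3p). The share was 28.6% of 832 other receptors and 28.3% of 19060 genes in all. Per kb of 3′ UTR the members held 0.213 sites, the other receptors 0.188 and all genes 0.253. The 63 tested members with a site had a median fitted log2 fold change of -1.86, and the 112 without one had -1.92. Of the receptors named below by level or p, Olfr1222 and Olfr1226 held a site each, both for miR-200a-3p. These sites are printed on the transcript strand (minus) with the match in capitals, from chr2:89124516-89124544 (position 261 of a 3′ UTR of 1909 bases) and chr2:89189865-89189893 (position 1659 of 2702 bases).
Olfr1222 site: tctagtagagaCAGTGTTcaaggttcagt
Olfr1226 site: ctaagttaattCAGTGTTacatatctttc

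Total counts per library ran from 15704791 to 17618540. KD-2 stood apart from the other 5 libraries: it held 149 Omp counts, against 24302 in KD-1, 33430 in KD-3 and 61926 to 69388 in NC. Summed CPM (counts scaled to a common normalised library size) of 15 markers of mature olfactory neurons were 151 to 5358 in KD and 8877 to 15623 in NC, and 15 of 15 had a fitted log2 fold change below 0. Markers of horizontal basal cells summed to 781 to 1331 CPM in KD and 188 to 595 in NC, and those of respiratory and ciliated cells to 3362 to 8415 and 1096 to 3142. Sustentacular markers summed to 1244 to 3702 CPM in KD and 3834 to 4992 in NC, plasma cell markers to 14873 to 27008 and 4235 to 23471, immature neuron markers to 128 to 531 and 509 to 651, globose basal and progenitor markers to 77.0 to 110 and 73.0 to 84.1, and brain markers to 73.2 to 118 and 161 to 227. The progenitor gene Neurod1 was the only marker at 0 in a library. In bulk tissue, fewer cells of a type and less RNA per cell cannot be told apart, and the part of these differences in the receptor values was not tested.

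The 266 receptors gave fewer counts in each KD library than in any NC library. They summed to 5975, 54 and 7137 counts in KD and to 20266, 16647 and 9875 in NC. KD-2 was almost empty of them, and NC-1 held the most. In normalised units the sums were 349, 4.14 and 393 CPM in KD and 1250, 850 and 554 CPM in NC, or 249 ± 213 against 885 ± 349 CPM (SD, 3 libraries a group), without overlap. The number of members with 10 or more counts was 124, 1 and 145 in KD and 203, 199 and 177 in NC (90 ± 77.8 against 193 ± 14). Members at 0 counts numbered 53, 244 and 37 in KD and 19, 17 and 22 in NC. The median member had 7, 0 and 11 counts in KD and 34, 37 and 20 in NC.

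Set against the neuron marker Omp, the values of the groups overlapped. Per 1000 counts of Omp, the members had 246, 362 and 213 counts in KD and 292, 251 and 159 in NC, or 274 ± 78.3 against 234 ± 67.8. The KD-2 value rests on 54 and 149 counts. As a share of all olfactory receptor counts, the members took 20.5% (95% exact binomial interval 20.03 to 20.96), 3.81% (2.88 to 4.94) and 18.05% (17.7 to 18.4) in KD. The NC shares were 21.6% (21.3 to 21.8), 20.2% (19.97 to 20.5) and 19.4% (19.1 to 19.8). KD-1 lay inside the range of NC, KD-3 below it, and KD-2 far below it. These intervals cover counting error alone.

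The low share in KD-2 went with 3 receptors outside the set. Olfr1372-ps1 (773 counts), Olfr56 (186) and Olfr920 (103) gave 1062 of the 1363 receptor counts of that library that were not from members, and their counts in the other KD libraries were 447 and 636, 261 and 127, and 98 and 90. Without these genes, chosen after their counts were seen, the members' share was 21.1, 15.2 and 18.4% in KD against 21.9, 20.8 and 20.1% in NC. The KD-2 value rests on 54 member counts, 24 of them from Olfr1033 alone.

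**Figure D1:**
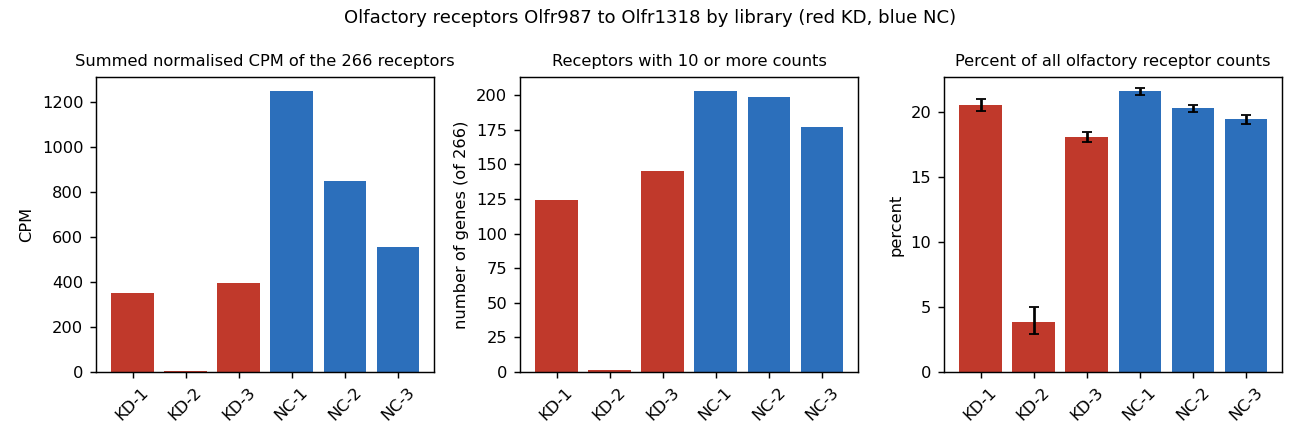
Summed normalised CPM of the 266 receptors (left), the number with 10 or more counts (middle) and their percent of all olfactory receptor counts (right), 1 bar per library from 0, KD in red and NC in blue; the bars on the right carry exact 95% binomial intervals. Every KD bar of the left and middle panels is below every NC bar, while in the right panel KD-1 at 20.5% lies within the NC bars of 19.4 to 21.6% and KD-2 stands at 3.81%.

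No member passed the test of KD against NC. In edgeR's quasi-likelihood test over 18444 genes with Benjamini-Hochberg adjustment, 0 genes passed an adjusted p of 0.05 (0% called), and the smallest adjusted p among members was 0.276. At an unadjusted p under 0.05 the same fit had 52 members lower in KD and 0 higher, where 9.25% of all tested genes (1706, beside 1604 higher) and 27.1% of the 583 other tested receptors were lower. DESeq2, an alternative, put 19 members below an adjusted p of 0.05, all lower in KD, where 1.07% of all genes and 13.6% of the other receptors were. In the edgeR fit 175 of 175 tested members had a log2 fold change below 0, against 49.4% of all tested genes and 574 of 583 other receptors. KD-2 was almost empty of members, so nearly every member needed NC counts to pass the filter on low counts. Passing in this way favours values below 0. With no such filter, 253 of 266 members were below 0. Of the 175, 130 were below 0 with summed receptor counts as library size. With the level of mature-neuron markers as a covariate, 83 were. That level (mean log2 CPM) was 7.18, 1.97 and 7.56 in KD and 9.05, 8.39 and 8.19 in NC. It did not overlap between the groups, so this fit separates level and group only by extrapolation. In the main edgeR fit the members' median was -1.90, that of the other receptors -1.63 and that of all genes 0.01. The members ranged from -6.05 to -0.02. The low end came from genes with so few KD counts that the fitted size depends on the prior count. With the receptor counts as library size the members' median was -0.46, and with the covariate it was 0.067. Putting the KD sum of any gene with 3 or fewer counts at 3 left the medians at -1.90 and -1.63. It could not move them, since such genes stayed below the median either way.

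All KD values lay below all NC values in 107 of the 175 tested members (18.6% of all tested genes and 55.2% of the other tested receptors) and in 135 of the 266 members of the table (13.5% of all genes and 50.3% of the other receptors). The filter on low counts left out 91 members, which had at most 180 counts over the 6 libraries and a median of 19. These untested members summed to 450 counts in KD and 2063 in NC. Over the whole set, mean CPM was lower in KD for 255 members, 80 of them untested, and higher for 11, all untested. Of these 11, Olfr1109 had the most counts, with 34, 0 and 7 in KD and 22, 5 and 4 in NC. Its higher mean rested on KD-1 and the groups overlapped. It was singled out after its values were seen.

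The difference was smaller without KD-2 and NC-1, the libraries with the fewest and the most receptor counts. Without KD-2, 196 of 199 tested members were below 0 with a median of -1.37 (-1.21 for the other receptors), and the remaining KD values lay below NC in 107 of the 175 (20.3% of all genes). In that fit 90 had an unadjusted p under 0.05 and were lower (8.69% of all genes). Without NC-1, 178 of 181 were below 0 with a median of -1.70 (-1.38 for the other receptors), 109 of the 175 had KD below NC (20.9% of all genes), and 33 had an unadjusted p under 0.05 (4.44% of all genes). Without both libraries, 164 of 181 were below 0 with a median of -1.12 (-0.81 for the other receptors), 109 of the 175 had KD below NC (24% of all genes) and 80 had an unadjusted p under 0.05 (7.14% of all genes). The smallest adjusted p of edgeR's quasi-likelihood test among members was then 0.127.

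**Figure D2:**
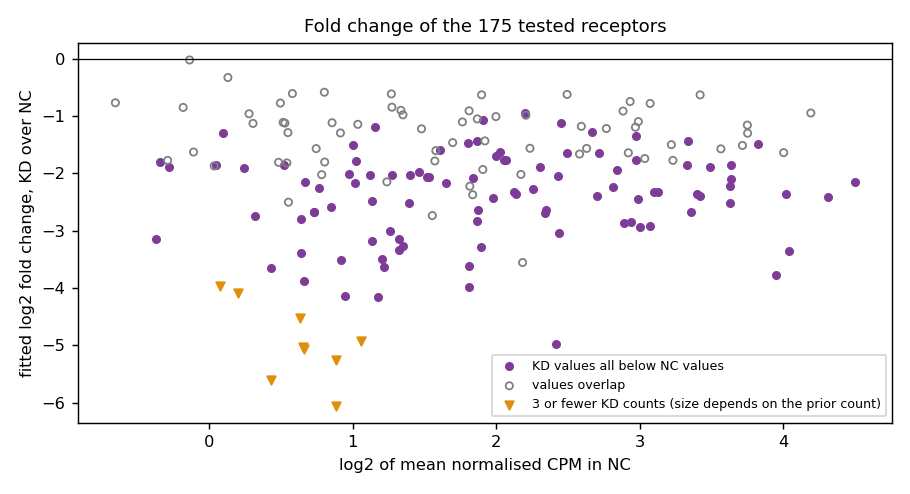
Fitted log2 fold change of KD over NC (y axis) against the log2 of mean normalised CPM in NC (x axis) for the 175 tested receptors; filled purple points have all KD values below all NC values, open grey points overlap, and orange triangles mark the 9 tested receptors with 3 or fewer KD counts, whose plotted size depends on the prior count. Every point lies below 0, and the lowest points belong to receptors of low NC level.

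The receptors with the highest NC levels sat close together near 89 to 90 Mb. Olfr1264 (chr2:90018526-90025577) was the highest of all with 456, 469 and 284 counts in NC and 173, 0 and 93 in KD. The groups did not overlap, and KD-2 held none. Its mean was 5.08 ± 5.05 CPM in KD against 22.7 ± 6.2 in NC, with a log2 fold change of -2.15 (SE 1.18) and an adjusted p of 0.33 in edgeR's quasi-likelihood test. Olfr1226, of the receptor family MOR233, had 438, 399 and 218 counts in NC and 149, 0 and 44 in KD, again without overlap. Its level was 3.71 ± 4.49 CPM in KD and 19.9 ± 7.41 in NC (log2 fold change -2.41, SE 1.23, edgeR adjusted p 0.31). Per kb of annotated exon the order of NC levels among the highest receptors changed: Olfr1224-ps1 had 5.99 CPM per kb, Olfr1264 5.26, Olfr1222 4.79, Olfr1228 4.74, Olfr1229 4.46, Olfr1260 3.66, Olfr1240 3.08 and Olfr1226 2.46.

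Receptors of this high group differed in how much remained in KD-1 and KD-3. Olfr1228 (chr2:89247964-89254062) had 356, 295 and 167 counts in NC and 49, 0 and 8 in KD, or 15.5 ± 6.31 against 1.1 ± 1.54 CPM. Its log2 fold change of -3.78 (SE 1.19) had an adjusted p of 0.28 in edgeR's quasi-likelihood test and of 0.047 in DESeq2. Olfr1260 (chr2:89974340-89981586) had 432, 229 and 195 counts in NC and 74, 0 and 8 in KD (log2 fold change -3.34, SE 1.30, edgeR adjusted p 0.28). In both, the KD-3 value was below the KD-1 value although KD-3 held more receptor counts in all. Olfr1259, the neighbour of Olfr1260 (chr2:89940532-89948664) and singled out for this contrast after its values were seen, had 239, 191 and 136 counts in NC and 115, 1 and 251 in KD, so that KD-3 had the most raw counts of the 6 libraries. In CPM, KD-3 at 13.8 lay between NC-1 at 14.7 and NC-2 at 9.76.

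Olfr1222 (chr2:89122885-89133054) kept the most counts in KD. It had 351, 364 and 260 counts in NC and 186, 4 and 311 in KD, and the groups overlapped through KD-3. Its level was 9.44 ± 8.51 CPM in KD and 18.3 ± 3.55 in NC, with a log2 fold change of -0.95 (SE 1.02, edgeR adjusted p 0.58). Olfr1224-ps1, annotated as protein coding in GRCm38 despite its symbol, had 333, 337 and 196 counts in NC and 77, 0 and 88 in KD, without overlap (log2 fold change -2.36, SE 1.13, edgeR adjusted p 0.30). Olfr1229 had 470, 207 and 152 counts in NC and 154, 0 and 115 in KD, and Olfr1240 had 329, 271 and 150 in NC and 120, 1 and 144 in KD. Their values in CPM overlapped for Olfr1229 and not for Olfr1240, with log2 fold changes of -1.64 (SE 1.26) and -1.49 (SE 1.10).

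At the other end, 12 of the 200 members with 30 or more NC counts (6%) had 3 or fewer counts over the 3 KD libraries together. The share was 12.2% of 687 other receptors and 0.633% of all genes with as many NC counts. Of the 12, 8 were also the members with the smallest p whose groups do not overlap. Olfr1275 (chr2:111230360-111235286), the first gene of the distal array, had 52, 26 and 18 counts in NC and 1, 0 and 0 in KD. Per effective library total this was a ratio of NC to KD of 86.5 (95% exact interval 15.2 to 3452), and of 63.1 without KD-2. Intervals of this kind, here and below, cover counting error alone and not the spread among libraries. The receptors were picked for few KD counts and small p, so the ratios and intervals describe them and test nothing. Olfr1202 had 30, 32 and 10 counts in NC and 1, 0 and 0 in KD, a ratio of 64.9 (11.3 to 2598). Olfr1181 had 53, 24 and 31 counts in NC and 3, 0 and 0 in KD, a ratio of 32.4 (10.8 to 160). All NC libraries held these receptors, and in KD what was left came from 1 library.

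The other 5 of the 8 were Olfr1009, Olfr1031, Olfr1032, Olfr1106 and Olfr1223, all in the proximal array. Olfr1009 had 31, 36 and 16 counts in NC and 0, 0 and 3 in KD, a ratio of 24.9 (95% exact interval 8.24 to 123). Olfr1031 had 19, 28 and 10 against 2, 0 and 1, a ratio of 17.1 (5.57 to 85.5), and Olfr1106 had 15, 23 and 24 against 1, 0 and 2, a ratio of 18.6 (6.08 to 92.8). For each of the 8, edgeR's quasi-likelihood test gave an adjusted p of 0.276 and DESeq2 one between 0.0028 and 0.029. The remaining 4 of the 12, Olfr988, Olfr1038-ps, Olfr1204 and Olfr1315-ps1, were named because the count asks for it. Among them Olfr1038-ps stood apart inside NC, with 1, 122 and 54 counts in NC and 1, 0 and 2 in KD. NC-1 therefore matched the KD libraries for that gene, which was not tested.

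**Figure D3:**
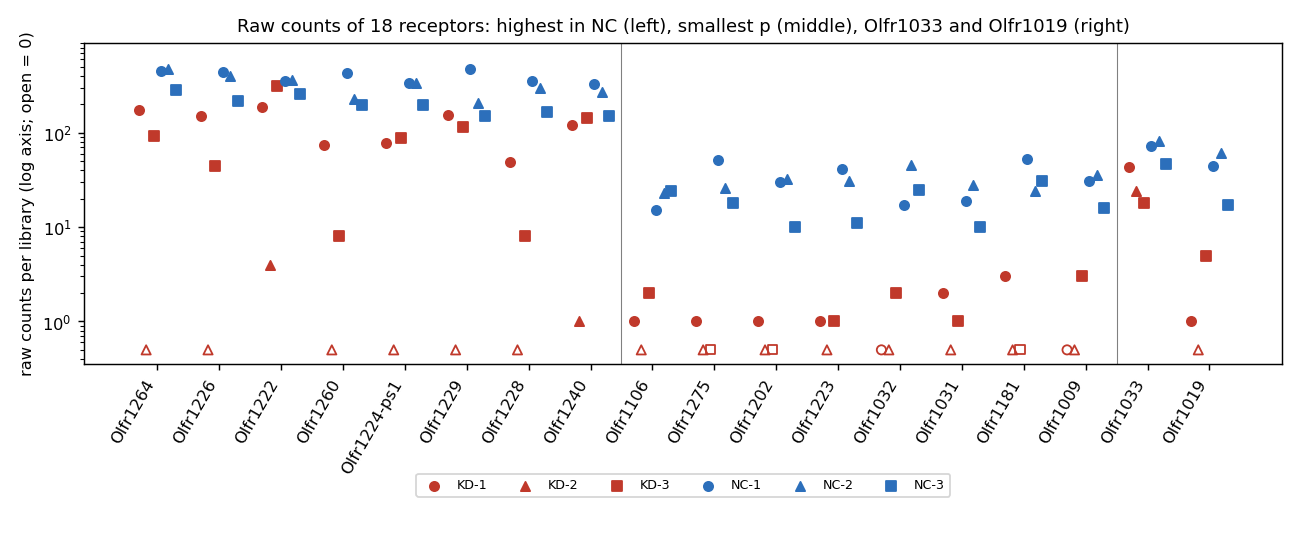
Raw counts per library (log axis, open symbols at the bottom for 0) of the 8 receptors with the highest NC level (left), the 8 with the smallest p among those without overlap (middle), and Olfr1033 and Olfr1019 (right), KD in red and NC in blue, 1 symbol per library. KD-2 is at 0 or at 4 or fewer counts in all but Olfr1033, where it holds 24, and in the middle group no KD library exceeds 3 counts.

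Neighbouring copies could differ strongly. Olfr1032 and Olfr1033 are adjacent genes of family MOR199 (chr2:86005540-86009125 and chr2:86020633-86045171) with coding sequences of 930 bases that differ at 45 (95.2% identity). Olfr1032 had 17, 45 and 25 counts in NC and 0, 0 and 2 in KD, a ratio of 39.2 (95% exact interval 10.5 to 329). Olfr1033 had 72, 82 and 47 counts in NC and 43, 24 and 18 in KD, or 3.75 ± 0.978 against 1.78 ± 0.761 CPM, without overlap (log2 fold change -1.08, SE 0.438, edgeR adjusted p 0.28). Its 24 counts in KD-2 were 24 of the 54 counts that all members had there, and it was the only member with more than 4 in that library. As a share of receptor counts, Olfr1033 was thus higher in KD-2 than in any NC library, while Olfr1032 was at 0 there.

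The start of the coding sequence of this pair, and of the pair Olfr1223 and Olfr1224-ps1 of family MOR233, shows how few bases separate such copies. The first 180 coding bases are given on the coding strand (GRCm38), with the bases that differ within a pair in capitals (10 in the first pair and 12 in the second). They lie at chr2:86007778-86007957 and chr2:86041317-86041496 (plus strand) and at chr2:89144842-89145021 and chr2:89156994-89157173 (minus strand).
Olfr1032: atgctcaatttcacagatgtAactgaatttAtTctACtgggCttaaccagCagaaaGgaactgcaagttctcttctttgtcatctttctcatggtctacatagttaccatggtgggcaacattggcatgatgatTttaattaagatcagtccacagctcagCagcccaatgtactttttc
Olfr1033: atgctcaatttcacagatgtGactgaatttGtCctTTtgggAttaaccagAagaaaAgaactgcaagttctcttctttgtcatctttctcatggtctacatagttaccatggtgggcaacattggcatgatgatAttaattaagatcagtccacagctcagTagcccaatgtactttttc
Olfr1223: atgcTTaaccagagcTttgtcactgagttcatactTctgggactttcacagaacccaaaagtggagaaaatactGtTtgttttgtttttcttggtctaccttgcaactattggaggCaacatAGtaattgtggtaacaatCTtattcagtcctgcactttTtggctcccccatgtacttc
Olfr1224-ps1: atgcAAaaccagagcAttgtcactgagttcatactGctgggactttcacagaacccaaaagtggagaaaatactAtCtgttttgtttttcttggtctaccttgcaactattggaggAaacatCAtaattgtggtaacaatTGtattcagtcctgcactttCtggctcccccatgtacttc

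In the second pair, 69 of 933 coding bases differ (92.6% identity). Olfr1223 had 41, 31 and 11 counts in NC and 1, 0 and 1 in KD, a ratio of 37.4 (95% exact interval 10.03 to 314), beside the 77, 0 and 88 KD counts of Olfr1224-ps1. The longest identical coding run was 119 bases in the first pair and 73 in the second, and the first pair shared 20 stretches of 100 coding bases while the second shared 0. Over the whole set, 137 members (51.5%) shared at least 1 stretch of 100 transcript bases with another gene, and in 20 of them such stretches, over all partner genes, made up 10% or more of those of the member. How reads that fit several genes were counted is not stated in the sources at hand, so values of near-identical copies are uncertain.

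Olfr1019, a receptor known from behavioural work on a fox odour (chr2:85839621-85845483), had 44, 61 and 17 counts in NC and 1, 0 and 5 in KD, without overlap. That was 2.26 ± 1.15 CPM in NC and 0.111 ± 0.145 in KD, with a log2 fold change of -4.16 (SE 0.926), an adjusted p of 0.28 in edgeR's quasi-likelihood test and of 0.0081 in DESeq2. The first gene along the chromosome, Olfr987, had 28, 41 and 23 counts in NC and 4, 0 and 14 in KD, without overlap (log2 fold change -2.26, SE 0.896, edgeR adjusted p 0.28). The last, Olfr1318, had 107, 22 and 50 counts in NC and 34, 0 and 64 in KD, with overlap (log2 fold change -0.91, SE 1.22, edgeR adjusted p 0.65). After Olfr1033 and Olfr1222, Olfr1271 had the most counts in KD-2, with 166, 70 and 55 counts in NC and 71, 3 and 118 in KD. Olfr1034, Olfr1110, Olfr1250 and Olfr1253 tied at 2 counts there, and the highest of them in NC was Olfr1110, with 316, 246 and 131 in NC and 97, 2 and 143 in KD.

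Relative to the receptor total of each library, the members no longer lay on 1 side. KD-2 was left out of this view because most of its members were at 0. Of the 206 members with 30 or more counts in all, the shares in KD-1 and KD-3 were both below all NC shares in 54, both above in 32 and overlapping in 120. In the 711 other receptors with as many counts, 27.1% were below and 15.8% above. Shares were also pooled, as summed counts over summed receptor counts of the libraries. The ratio of the pooled KD-1 and KD-3 share to the pooled NC share had a median of 0.801. Its 10th and 90th percentiles were 0.249 and 1.69. It was under 0.5 in 52 members and over 1.5 in 32, from 0.0344 for Olfr1275 to 4.37 for Olfr1109. In raw counts over all 266 members, not scaled to receptor totals, KD-1 had more than KD-3 in 77 and fewer in 160. That count favours KD-3, which held 39544 receptor counts against 29162 in KD-1.

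Receptor families, named MOR by sequence likeness, were taken from the RefSeq synonyms, which held a MOR name for 254 members. Of the 254, 8 had names of several families and were left out of the family sums. Among the families, 26 had at least 3 members (216 members in all). Summed CPM were lower in KD than in NC without overlap in 18 of the 26. Families of the other receptors were not counted in this way, so the number describes these families alone. The largest, MOR245 with 22 members in the distal array, had 349, 0 and 370 counts in KD and 1176, 730 and 529 in NC. MOR233, with 17 members around 89 Mb, had the most counts: 1012, 6 and 964 in KD and 3112, 2747 and 1577 in NC. Both families had every KD library below every NC library.

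Relative to receptor totals, the KD-1 and KD-3 shares of 4 families (MOR174, MOR203, MOR234 and MOR264) were below all NC shares, those of 3 (MOR172, MOR213 and MOR248) above them, and those of 19 overlapped. These numbers too have no count over families of the other receptors beside them. MOR174, with 15 members, summed to 59, 1 and 133 counts in KD and 444, 517 and 208 in NC, or 3.62 ± 3.63 against 21.8 ± 8.81 CPM. MOR213, with 6 members, summed to 307, 1 and 430 counts in KD and 631, 625 and 376 in NC, or 13.9 ± 12.3 against 30.6 ± 8.99 CPM. The KD to NC ratio of mean CPM was 0.166 in the former and 0.454 in the latter, within a range from 0.118 for MOR173 to 0.455 for MOR190. The families were compared as a description, since the members of a family share sequence and position and are not replicates.

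Members of 1 family also differed among themselves. In MOR248, Olfr1280 had 117, 96 and 70 counts in NC and 8, 0 and 0 in KD, and its neighbour Olfr1281 had 48, 41 and 13 in NC and 5, 0 and 0 in KD. Further along the same array, Olfr1294 had 206, 101 and 90 counts in NC and 117, 0 and 122 in KD, and Olfr1297 had 208, 166 and 70 in NC and 98, 0 and 161 in KD. Relative to receptor totals, the shares of Olfr1280 and Olfr1281 in KD-1 and KD-3 were both below NC, and those of Olfr1294 and Olfr1297 both above. These 4 receptors were singled out after their values were seen.

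**Figure D4:**
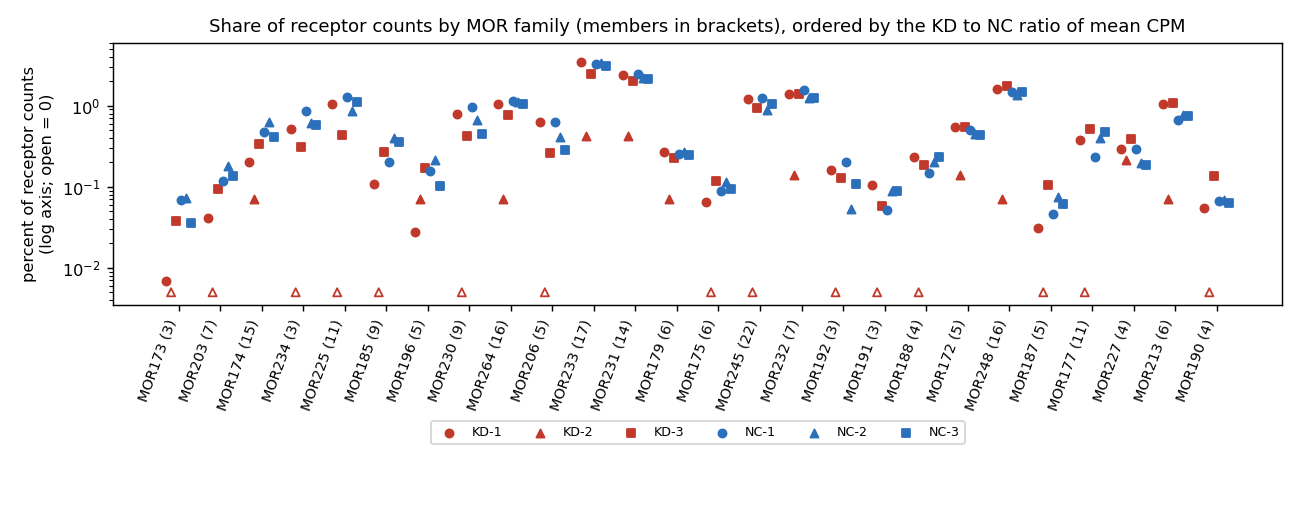
Percent of all olfactory receptor counts (log axis, open symbols for 0) for the 26 MOR families with 3 or more members, ordered by the KD to NC ratio of mean CPM, 1 symbol per library, KD in red and NC in blue. KD-2 is at 0 in many families, and KD-1 and KD-3 lie below all NC libraries in 4 families, such as MOR174, and above them in 3, such as MOR213.

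Along the chromosome the members form 2 arrays, separated by 20826.5 kb. The proximal array holds 226 members from Olfr987 (start 85330779) to Olfr1274-ps, with no gap above 135.576 kb, and the distal array holds 40 from Olfr1275 to Olfr1318 (end 112159157). The proximal array summed to 5124, 53 and 6034 counts in KD and 17626, 14761 and 8577 in NC, or 212 ± 181 against 774 ± 304 CPM. The distal array summed to 851, 1 and 1103 counts in KD and 2640, 1886 and 1298 in NC, or 36.9 ± 32.3 against 111 ± 46.7 CPM. In both, KD lay below NC without overlap. The median fitted log2 fold change was -1.92 over the 146 tested members of the proximal array and -1.65 over the 29 of the distal one.

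In bins of 0.5 Mb the 23 members from 88.0 Mb, Olfr1160 to Olfr1186, were the lowest, with 124, 1 and 175 counts in KD and 927, 787 and 439 in NC, a KD to NC ratio of mean CPM of 0.139. In the distal array the 15 members from 111.0 Mb had a ratio of 0.192 and the next 16, from 111.5 Mb, one of 0.394. Relative to receptor totals, KD-1 and KD-3 were both below NC in the former bin and both above NC in the latter. The bins from 85.0 and 88.0 Mb also had both below NC, no other bin had both above, and the rest overlapped. The contrast of the neighbouring bins from 111.0 and 111.5 Mb was singled out after their values were seen.

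Libraries of the same group also differed by position. The share of receptor counts in KD-1 over that in KD-3 was 0.44 to 0.769 in 4 of the 14 bins, those from 85.0, 85.5, 86.0 and 87.5 Mb with 89 members, and 0.961 to 2.32 in the other 10. The same 4 bins had the lowest NC-1 share over NC-2, at 0.588 to 0.73, against 1.01 to 1.42 in the other 10. Against NC-3, NC-1 gave 0.771 to 0.878 in the 4 bins and 0.9996 to 1.55 in the rest. The KD ratio and the NC ratios share no library, but neighbouring receptors are not independent and the bins were grouped after their values were seen. Receptor by receptor, KD-1 over KD-3 and NC-1 over NC-2 had a rank correlation of 0.39 over 146 members and 0.29 over 476 other receptors. A like direction of these ratios was thus not particular to the members. The bin from 85.0 Mb had only 12 counts in KD-1 and 37 in KD-3.

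**Figure D5:**
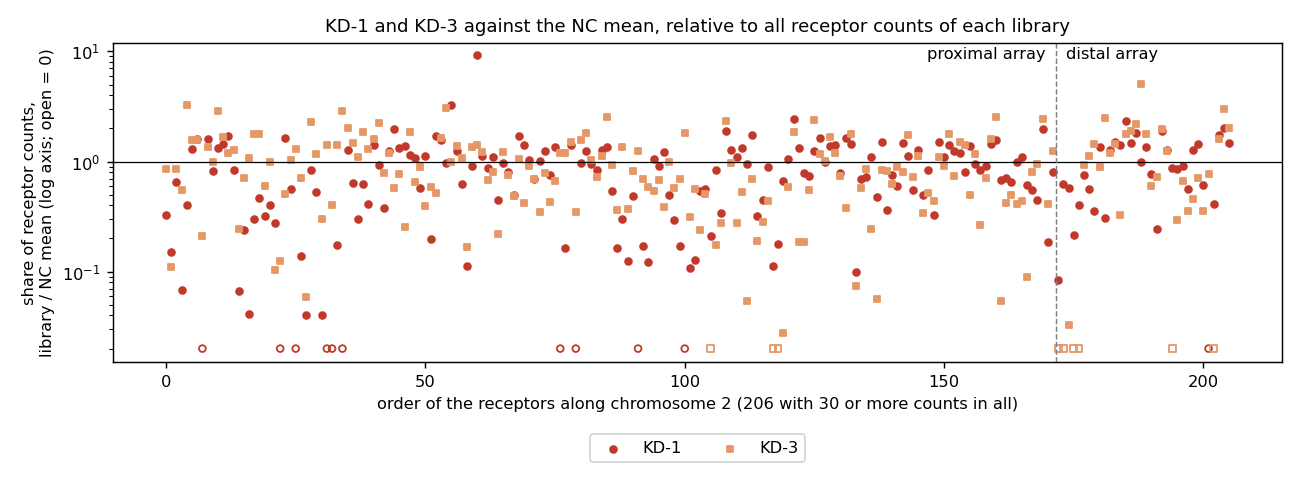
Share of receptor counts in KD-1 and KD-3 divided by the NC mean share (log axis, open symbols for 0), for the 206 members with 30 or more counts in order along chromosome 2; the dashed line parts the proximal from the distal array. Points spread on both sides of 1, and most open KD-1 symbols lie in the left part and most open KD-3 symbols in the right part.

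By the total over the 6 libraries, which includes the KD counts and so favours members that kept them in the higher classes, the KD to NC ratio was as follows. With KD-1 and KD-3 alone, it was 0.352 over the 60 members with under 30 counts in all, 0.332 over the 60 with 30 to 100, 0.384 over the 82 with 100 to 300 and 0.453 over the 64 with 300 or more. With KD-2 included the ratios were 0.257, 0.243, 0.283 and 0.332. The 10 members with the most counts in a library held 23.1, 77.8 and 24.8% of its member counts in KD and 19.2, 18.7 and 20.4% in NC, where the KD-2 value rests on 54 counts. The 10 members with the highest NC mean held 20.3, 12.96 and 16.6% in KD and 19.0, 18.2 and 19.2% in NC.

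Genes annotated as pseudogenes gave few counts. The 21 of them summed to 12, 0 and 31 counts in KD and 40, 175 and 94 in NC, 3 reached 10 counts in any library and 1 was tested. Of the 245 protein-coding members, 212 reached 10 counts in a library and 174 were tested. Among 33 symbols that end in -ps, 15 were annotated as protein coding, so the symbol and the annotation differ for these.

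The RefSeq promoter table (GRCm38.p6) held 193 members, but in 14 only did the annotated start lie more than 200 bases before the coding sequence and less than 20000 from it. Motifs were searched in the 250 bases before the start. Of these 14 windows, 5 held the Ebf core TCCCNNGG on either strand. The core was in 16 of 73 windows of other receptors (21.9%) and 22.7% of 6667 windows of all genes. A homeodomain core, TAATTA or TAATGA on either strand, was in 9 of the 14, in 45.2% of the other receptors and in 8.73% of all genes. Ebf and homeodomain factors such as Lhx2 are known to bind receptor promoters, and a match is no evidence of binding here. An example of each is printed as the 150 bases before the start, on the gene's strand, with the match in capitals (Olfr1130, chr2:87606062-87606211, plus strand, Ebf core; Olfr1290, chr2:111493816-111493965, minus strand, TAATTA).
Olfr1130: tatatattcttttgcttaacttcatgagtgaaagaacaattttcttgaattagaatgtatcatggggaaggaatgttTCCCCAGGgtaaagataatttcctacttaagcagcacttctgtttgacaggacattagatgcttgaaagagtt
Olfr1290: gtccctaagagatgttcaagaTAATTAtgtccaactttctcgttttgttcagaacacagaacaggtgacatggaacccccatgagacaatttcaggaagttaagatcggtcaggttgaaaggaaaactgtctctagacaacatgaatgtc
Olfr1130 had 31, 37 and 7 counts in NC and 12, 0 and 8 in KD, and Olfr1290 had 85, 77 and 39 in NC and 32, 0 and 41 in KD. Both overlapped between groups.

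The other genes of odour transduction and receptor expression lay mostly on the same side as the receptors. Of a list of 28, all tested, 0 passed in edgeR's quasi-likelihood test, 27 had a log2 fold change below 0 and 1 above, and the median was -1.68. At an unadjusted p under 0.05, 4 were lower and 1 was higher, and DESeq2 called 0 (smallest adjusted p 0.11). The list held 23 genes with KD below NC without overlap (18.6% of all tested genes) and 1 with KD above. Adcy3, which makes the second messenger of the receptors, had 3960, 228 and 2808 counts in KD and 13330, 12166 and 6858 in NC, or 134 ± 108 against 609 ± 219 CPM. Rtp1, which carries receptors to the membrane, had 121 ± 106 CPM in KD and 419 ± 94.7 in NC. Lhx2, a homeodomain factor that receptor choice needs, had 57.7 ± 53.1 against 195 ± 28.8 CPM.

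A few factors of the list had nearly equal levels in both groups. Ldb1, the cofactor of Lhx2, had 145 ± 22.5 CPM in KD and 161 ± 13.1 in NC, and the histone demethylase Kdm1a, which the choice of a receptor needs, had 81.3 ± 3.50 against 81.9 ± 2.87. Both overlapped between groups. Lbr, a nuclear envelope protein that mature olfactory neurons lack, was the gene above 0, with 51.6 ± 11.1 CPM in KD and 33.5 ± 6.53 in NC and no overlap (edgeR adjusted p 0.28).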

How the data were processed

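The authors deposited 1 table with raw counts of 31319 genes in 6 libraries, per the file headers. Other deposited columns, not used for results, hold an unadjusted p-value, a log2 fold change (KD over control) and a signal, the authors' mean of scaled counts. The submitters' processing notes name HTSeq 0.6.0, HISAT2 2.1.0, Bowtie2 2.2.3, TopHat2, the build GRCm38, and both DESeq and DESeq2, without their roles. The annotation release, the strand setting and how multiply mapped reads were handled were not given in the sources at hand. Reads of overlapping genes cannot be told apart.

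Symbols (25 repaired by gene ID) and positions came from GENCODE (31251 IDs found). The test was that of edgeR 4.0.16 under R 4.3.3: TMM, its default filter on low counts, quasi-likelihood test of KD against NC, two-sided, no covariate, Benjamini-Hochberg over 18444 genes, threshold 0.05. The biological coefficient of variation was 40.9%. DESeq2 1.42.0 and voom (limma 3.58.1) were alternatives, as were RLE factors, no filter, receptor counts as library size, mature-neuron level as a covariate, a replicate block and leaving out libraries. CPM are TMM-normalised. Intervals are exact at 95%, cover counting error alone and treat each count as independent. The reads have no molecular identifiers, so the intervals may be too narrow even for that error. The scripts were run on simulated counts with less spread than these data and no library like KD-2. That run does not show which members the fit could call or miss here.

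Members and gene lists were chosen with earlier results of these data known. Named are the 8 members with the highest NC mean, the 8 with the smallest p without overlap, up to 6 tested members above 0 (there were none), the 4 with the most KD-2 counts (ties, as at the fourth place, broken by NC mean), the first and last by position, and Olfr1019. Others were named after their values were seen, as the text says. Protein likeness was not used here, and the MOR families and coding identity take its place.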

Additional observations from a re-analysis of the deposited data

How the results depend on the processing

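With edgeR and voom, 0 members passed under any setting run, and leaving out 1 library at a time left 178 to 196 members below 0 with medians of -2.53 to -1.37, 0 genes called and 0 members called. Over all genes DESeq2 called 347 (151 higher, 196 lower), with 19 members; 3 were called when KD-2 and NC-1 were both left out, 1 with receptor counts as library size and 4 with that and without KD-2 (chosen after seeing the data). The members' median was -2.79 with voom. With receptor counts as library size it was -0.46 (-0.30 without KD-2), where the median of all genes itself moved by 3.75 (1.03). With the mature-neuron level as covariate 83 members were below 0 and the median was 0.067. That level did not overlap between the groups, so this fit separates level and group only by extrapolation. The values did not show that replicate numbers pair the libraries, which 3 libraries a group cannot settle. Deviations of same-numbered libraries from their group means correlated at 0.31, 0.10 and -0.26, and only number 1 matched best with itself. A replicate block called 0 genes, with 175 members below 0 and a median of -2.34. The difference in receptor share (-6.30 percentage points) ran from -9.49 to -1.15 on leaving out 1 library, and that in members with 10 or more counts (-103) from -130.5 to -58.5. Of 328 values of 22 named members, 297 kept direction and call, 10 passed under DESeq2 and 21 changed sign. With the covariate these were Olfr1264 (0.050), Olfr1222 (0.75), Olfr1229 (1.26), Olfr1240 (0.55), Olfr1271 (1.14), Olfr1110 (0.34) and Olfr1318 (1.89). With receptor counts as library size they were Olfr1222 (0.38), Olfr1033 (2.73), Olfr1271 (1.04) and Olfr1318 (0.43), and without KD-2 also Olfr1222 (0.69), Olfr1229 (0.22), Olfr1240 (0.25), Olfr1033 (0.095), Olfr1271 (1.13), Olfr1110 (0.22) and Olfr1318 (0.81). Without NC-1 it was Olfr1271 (0.13; -1.34 at the lowest on leaving out 1 library), and without NC-1 and KD-2 Olfr1271 (0.70) and Olfr1318 (0.52; -1.77 at the lowest). The cause was not tested. Depth limits receptors with few counts: 91 members could not be tested, and KD-2 held 54 member counts in all.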
